A study of Mus musculus with 19 samples.

Results

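Spermatid and sperm genes are the genes of the last phase of male germ cell development, in which a round haploid cell packs its chromatin, builds an acrosome and grows a flagellum. A list of 37 such genes was examined for SOX3 occupancy in the postnatal day 7 mouse testis. A gene was taken to have a promoter peak in a replicate when a peak of that SOX3 ChIP-seq list lay within 2 kb of an annotated RefSeq transcription start site (TSS) of mm10. All 37 genes were matched to the annotation, out of 21000 protein-coding genes, and all lay on autosomes. The series holds 19 samples, of which the 2 SOX3 ChIP-seq and 2 SOX3 ChIP-nexus peak lists were used, and the 15 other samples were not analysed here. Every list came from testis of C57BL/6J mice with no genetic change or treatment in the labels, precipitated with an antibody to SOX3. The labels give postnatal day 7, while the methods describe tubules of several animals at that day or the day after, so each replicate is a mixture of germ cells and somatic cells, and the cells that carried a peak cannot be told apart. No control group was present, and peak lists carry no RNA by which the labelled tissue could be checked.

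SOX3 is a transcription factor of the SOX family, known in the testis for its place in spermatogonia that are leaving the undifferentiated state. At this age the first wave of spermatogenesis has produced spermatogonia but no spermatids, so the genes of the list belong to a cell that comes later. Many of their promoters are poor in CpG, the dinucleotide that is otherwise lost from the genome and kept in the CpG islands of widely expressed genes, and several are known targets of the spermatid activator CREM.

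The promoters differed first in their sequence, so the 200 bases before the start are shown for 10 genes, from GRCm38.p6 (the assembly of mm10) in the direction of the gene, with each CpG in capitals. Prm1 and Odf1 are members with no promoter peak, and Tnp2 is followed by Socs1, the neighbour whose start carried the strongest peak near Tnp2. Pgk2 and Oaz3 are each followed by the widely expressed relative, and Izumo1 and Zpbp2 are members with a promoter peak in both replicates. None of these windows overlapped a RefSeq exon. The CpG ratio used below was taken over 500 bp either side of the start, and its order can differ from that of these CpG counts. That ratio was 0.343 at Prm1, 0.276 at Odf1, 0.309 at Tnp2 and 0.235 at Pgk2. It was 0.274 at Oaz3, 0.320 at Izumo1 and 0.705 at Zpbp2.
Prm1, chr16:10796824-10797023, minus strand, 0 CpG: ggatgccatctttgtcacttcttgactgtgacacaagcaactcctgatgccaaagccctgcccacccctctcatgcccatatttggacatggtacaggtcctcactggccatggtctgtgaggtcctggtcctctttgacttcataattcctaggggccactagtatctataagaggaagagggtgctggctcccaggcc
Odf1, chr15:38219003-38219202, plus strand, 2 CpG: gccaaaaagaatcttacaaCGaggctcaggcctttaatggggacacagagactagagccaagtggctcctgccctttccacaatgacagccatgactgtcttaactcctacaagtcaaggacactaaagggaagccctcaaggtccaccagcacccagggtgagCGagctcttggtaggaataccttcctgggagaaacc
Tnp2, chr16:10788656-10788855, minus strand, 2 CpG: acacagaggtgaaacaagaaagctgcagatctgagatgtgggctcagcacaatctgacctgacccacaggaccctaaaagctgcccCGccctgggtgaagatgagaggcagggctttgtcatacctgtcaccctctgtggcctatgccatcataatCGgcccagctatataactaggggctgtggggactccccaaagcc
Socs1, chr16:10785537-10785736, minus strand, 10 CpG: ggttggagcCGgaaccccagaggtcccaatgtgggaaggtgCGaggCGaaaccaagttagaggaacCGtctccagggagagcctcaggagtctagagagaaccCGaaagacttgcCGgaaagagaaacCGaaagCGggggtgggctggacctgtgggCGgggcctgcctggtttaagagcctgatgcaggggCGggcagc
Pgk2, chr17:40208610-40208809, minus strand, 3 CpG: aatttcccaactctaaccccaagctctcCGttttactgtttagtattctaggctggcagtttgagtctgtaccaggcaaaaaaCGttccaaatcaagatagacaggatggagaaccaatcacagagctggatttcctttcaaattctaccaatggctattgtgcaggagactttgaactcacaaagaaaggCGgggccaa
Pgk1, chrX:106186900-106187099, plus strand, 12 CpG: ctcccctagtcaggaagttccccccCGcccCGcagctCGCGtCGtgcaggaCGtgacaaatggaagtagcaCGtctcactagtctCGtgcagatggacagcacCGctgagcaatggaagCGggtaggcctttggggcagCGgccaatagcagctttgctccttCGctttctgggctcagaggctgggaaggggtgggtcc
Oaz3, chr3:94436652-94436851, minus strand, 3 CpG: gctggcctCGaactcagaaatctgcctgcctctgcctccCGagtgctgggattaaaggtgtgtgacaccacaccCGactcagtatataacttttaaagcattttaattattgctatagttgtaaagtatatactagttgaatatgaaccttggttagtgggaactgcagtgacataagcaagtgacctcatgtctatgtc
Oaz1, chr10:80826456-80826655, plus strand, 15 CpG: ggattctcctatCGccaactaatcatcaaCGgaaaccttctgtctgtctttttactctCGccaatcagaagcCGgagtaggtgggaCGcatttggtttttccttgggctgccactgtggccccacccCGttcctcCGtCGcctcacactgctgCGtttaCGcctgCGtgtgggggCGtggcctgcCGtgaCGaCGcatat
Izumo1, chr7:45621611-45621810, plus strand, 7 CpG: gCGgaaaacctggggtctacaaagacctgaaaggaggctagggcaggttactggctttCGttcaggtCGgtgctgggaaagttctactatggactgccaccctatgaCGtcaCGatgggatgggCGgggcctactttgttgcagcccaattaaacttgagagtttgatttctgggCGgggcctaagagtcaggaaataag
Zpbp2, chr11:98550897-98551096, plus strand, 16 CpG: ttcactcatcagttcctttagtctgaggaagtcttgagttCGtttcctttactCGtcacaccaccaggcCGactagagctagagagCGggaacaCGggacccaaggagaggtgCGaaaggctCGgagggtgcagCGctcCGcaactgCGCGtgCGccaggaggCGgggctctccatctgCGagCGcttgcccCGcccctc

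The lists held 58351 peaks in replicate 1 and 38832 in replicate 2, called separately by the authors. Each peak has a q score (10 times the −log10 of the false discovery rate, minimum 30) and a log2 ratio of ChIP over input. These 2 values repeated between peaks, since 98.7% of the peaks of replicate 1 and 98.6% of those of replicate 2 shared both with another peak of the same list. Scores were higher in replicate 1, so they are compared only within a list. The files give no read numbers, and the depth behind each peak is unknown from them. The study itself reports more unique reads for SOX3 replicate 2 than for replicate 1.

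Promoter peaks were found at 18 of the 37 genes in replicate 1 (48.6%) and at 16 in replicate 2 (43.2%), against 67.8% and 60% of all protein-coding genes. In both replicates 15 of the 37 (40.5%) had one, against 57.9% of all protein-coding genes. The share averaged 45.9% ± 3.8 (SD, n = 2 replicates) for the list and 63.9% ± 5.5 for all protein-coding genes. The 15 were Tnp2, Odf2, Izumo1, Zpbp, Zpbp2, Catsper2, Tssk1, Tssk3, Tssk6, Crem, Hspa1l, Tcp11, Klhl10, Spata3 and Tekt1. Spaca1, Spem1 and Catsper4 had a promoter peak in replicate 1 only, and Prm3 in replicate 2 only. The other 18 had none in either list: Tnp1, Prm1, Prm2, Acr, Acrv1, Spaca3, Spaca7, Odf1, Akap3, Gapdhs, Pgk2, Ldhc, Catsper1, Catsper3, Tssk2, Smcp, Oaz3 and Fscn3.

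The rule also asks for genes of equal promoter CpG ratio, the observed over expected CpG frequency in the 500 bp either side of the start, taken at the start where it was highest. The median ratio was 0.293 in the list and 0.615 over all protein-coding genes. Only 8 of the 37 members (21.6%) reached a ratio of 0.6, against 51.5% of all protein-coding genes. When each member was set against the protein-coding genes in its own CpG bin (10 bins of equal gene number), 47.2% of such genes had a promoter peak in replicate 1, 37.5% in replicate 2 and 34.0% in both. The list stood above these shares by 3.6 percentage points ± 3.0 (SD, n = 2 replicates). This SD is the spread between 2 lists over the same 37 genes, and it does not measure the uncertainty of a share of 37 genes. The direction of the difference depended on the window. Within 1 kb the members stood at 40.5%, 32.4% and 29.7% (replicate 1, replicate 2 and both). The shares at equal CpG ratio were then 43.9%, 34.8% and 31.65%, with the members below in each. Within 5 kb the members stood above in each, at 62.2%, 56.8% and 54.05% against 53.3%, 43.85% and 39.9%. The members were chosen with earlier results of these data known, and no test of these differences was made.

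Of the members with a promoter peak, 8 of 18 in replicate 1 and 8 of 16 in replicate 2 had a ratio of 0.6 or more, against 10431 of 14248 and 9805 of 12605 protein-coding genes with one. At a ratio of 0.6 or more all 8 members had a peak in both replicates, where 96.5% and 90.7% of protein-coding genes of that class had one in replicates 1 and 2. Below it 10 of 29 members (34.5%) had a peak in replicate 1 and 8 (27.6%) in replicate 2, against 37.5% and 27.5%. The lowest 3 bins held 22 members, of which 6 had a peak in replicate 1 and 5 in replicate 2, where all genes stood at 18.8% and 12.2%. The members were not spread evenly over these bins. Bin 3 held 15 of them, of which 4 had a peak in each replicate, against 31.7% and 20.3% of its genes. In the next 2 bins the counts were 5 and 4 of 8 members, against 69.3% and 54.1% of all genes. Bin 4 held 6 of these, of which 3 had a peak in each replicate, against 55.2% and 40.2% of its genes. Among the 18 members without any promoter peak the highest ratio was 0.404, at Tssk2. The lowest ratio among the members with a peak in both replicates was 0.186, at Klhl10.

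**Figure D1:**
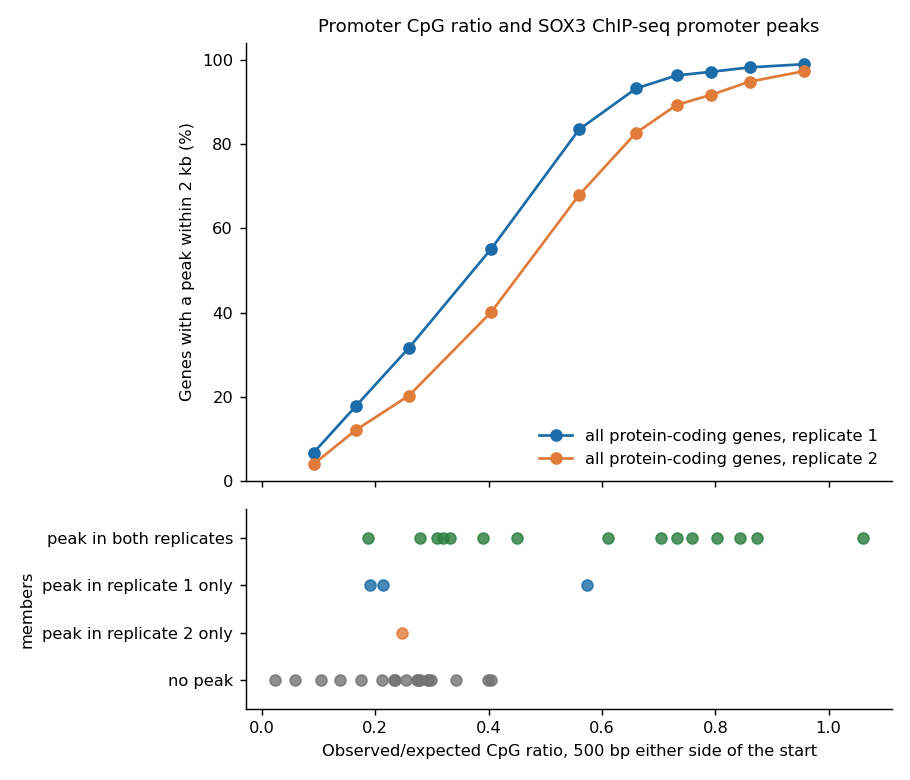
Above, the share of all protein-coding genes with a SOX3 ChIP-seq peak within 2 kb of a start (%) against the median CpG ratio of each of 10 bins of genes, for replicate 1 (blue) and replicate 2 (orange); below, each of the 37 members as a point at its own CpG ratio, in rows by peak state. The share rises from 6.81% and 4.10% in the lowest bin to 98.9% and 97.2% in the highest, and every member without a peak lies at a ratio of 0.404 or below.

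Sperm chromatin packaging was represented by 5 genes, of which 1 in replicate 1 and 2 in replicate 2 had a promoter peak, against 41.1% and 28.3% at equal CpG ratio. Transition proteins (Tnp1 and Tnp2) replace histones in elongating spermatids, and protamines (Prm1, Prm2) then replace them, while Prm3 is a protamine-like gene beside these. Prm1, Prm2, Prm3 and Tnp2 follow each other on the minus strand of chromosome 16, from the end of Tnp2 at 10787935 to the start of Prm1 at 10796823, and Socs1, a suppressor of cytokine signalling, starts beyond Tnp2 at 10785536. The strongest peak near Tnp2 had a q score of 216 (log2 ratio 2.97) in replicate 1 and of 159 (3.43) in replicate 2. It ended 1577 bp and 1309 bp from the Tnp2 start, was 3488 bp and 2889 bp wide, and covered the start of Socs1 in both lists. Replicate 2 alone had a second peak, 608 bp wide, over the Tnp2 start itself, with a q score of 43.7 and a log2 ratio of 4.42. This narrow peak lay 1768 bp from the Prm3 start and was the one that gave Prm3 its promoter peak. From Prm1 the nearest peak was 9745 bp away in replicate 1 and 7677 bp in replicate 2, and from Prm2 it was 5027 bp and 2959 bp. Within the cluster, the peak found in both lists was therefore that at the Socs1 start. Tnp1, alone on chromosome 1, had its nearest peak at 23245 bp and 70152 bp.

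Among the 8 genes of the acrosome and egg binding, 3 (37.5%) had a promoter peak in both replicates, against 37.8% of genes at equal CpG ratio. Izumo1, the sperm surface protein needed for fusion with the egg, had q scores of 55.6 (log2 ratio 2.43) and 50.2 (4.58). Its strongest peak covered the start in replicate 1 (1799 bp wide) but lay 1320 bp away in replicate 2 (762 bp wide), where a weaker peak of replicate 1 overlapped it. Zpbp, a zona pellucida binding protein of the acrosome, had a peak over its start in each list, at a q score of 237 (log2 ratio 4.34, width 1341 bp) and of 66.6 (2.13, 1113 bp). Its paralog Zpbp2 had q scores of 137 (log2 ratio 3.41, width 1834 bp, over the start) and 32.2 (1.88, 664 bp, 131 bp from it). Both zona pellucida binding protein genes have CpG-rich starts, with ratios of 0.802 and 0.705. Spaca1, an acrosomal membrane protein, had a peak 588 bp wide over its start in replicate 1 (q score 38.9, log2 ratio 2.80), while the nearest in replicate 2 was 124851 bp away. The proacrosin gene Acr and the acrosomal protein genes Acrv1, Spaca3 and Spaca7 had no promoter peak, with the nearest between 5160 bp and 32815 bp away.

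Flagellum and head structure comprised 7 genes, of which Odf2 and Tekt1 (28.6%) had a promoter peak in both replicates, against 29.3% at equal CpG ratio. Odf2, an outer dense fibre protein that is also a centrosome component of dividing cells, had one broad peak over all 5 of its starts, with q scores of 261 (log2 ratio 3.77, width 3325 bp) and 123 (2.82, 2400 bp). Tekt1, a tektin of ciliary and flagellar microtubules, had q scores of 69.9 (3.18, 1067 bp) and 38.7 (2.01, 612 bp) over 1 of its 3 starts. Odf1, the main testis-specific outer dense fibre protein, had its nearest peak at 6820 bp and 19811 bp. The 2 outer dense fibre genes thus differed in both lists, and their CpG ratios were 0.844 at Odf2 and 0.276 at Odf1. Spem1, needed for removal of cytoplasm from the sperm head, lay just inside the limit in replicate 1, with a peak 476 bp wide at 1971 bp (q score 31.1, log2 ratio 2.40), and outside it in replicate 2, at 4659 bp. Akap3, an anchoring protein of the fibrous sheath, was 3486 bp and 3331 bp from a peak over the start of Ndufa9. Smcp, a mitochondrial capsule protein, lay in a region with no peak for 424854 bp and 507154 bp. Oaz3, a testis form of ornithine decarboxylase antizyme, was 6106 bp and 6330 bp from a peak over Mrpl9, but the GENCODE M21 annotation has a start of Oaz3 within 2 kb of a peak in both lists.

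None of the 3 genes of sperm glycolysis had a promoter peak in either replicate, where 27.1% and 17.6% of genes of equal CpG ratio did. These are isozymes that replace a widely expressed form in the flagellum. Gapdhs was 2481 bp from a peak in replicate 1, the closest of the members outside the limit in that list, and 9041 bp in replicate 2. With GENCODE starts it counted as having a peak in replicate 1. Pgk2, an intronless copy of Pgk1, was 359199 bp and 359261 bp from the nearest peak. Ldhc lies beside Ldha on chromosome 7, and its nearest peak was the one over the Ldha start, at 13531 bp and 13673 bp.

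Of the 4 pore-forming subunits of CatSper, the calcium channel of the sperm tail, only Catsper2 had a promoter peak in both lists (1 of 4, or 25%, against 35.3% at equal CpG ratio). Its peak had the highest q score of any member in each replicate, 673 (log2 ratio 6.18, width 2017 bp) and 169 (2.86, 1868 bp). Among protein-coding genes with a promoter peak it stood at percentile 98.5 and 90.6 of the q score. The same peak covered the start of Pdia3, a disulfide isomerase of the endoplasmic reticulum that runs the other way from 110 bp off, and the middle of the peak was nearer to Catsper2 in replicate 1 and to Pdia3 in replicate 2. Catsper4 had a peak 820 bp wide over its start in replicate 1 only (q score 38.9, log2 ratio 2.80), and its nearest in replicate 2 was 2531 bp away. Catsper1 was 4213 bp and 25486 bp from a peak, and Catsper3 9168 bp and 21244 bp.

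Testis-specific serine kinases phosphorylate proteins of the forming sperm, and 3 of the 4 had a promoter peak in both replicates, where 43.5% of genes at equal CpG ratio and 57.9% of all protein-coding genes did. Tssk6 had q scores of 296 (log2 ratio 3.82, width 4257 bp) and 98.8 (2.39, 2862 bp), under a peak that also covered Ndufa13, a subunit of respiratory complex I whose start is 164 bp away. Tssk1 had q scores of 258 (4.26, 2927 bp) and 163 (3.58, 2985 bp), but these peaks covered the start of Dgcr2, and their edges were 1832 bp and 1044 bp from Tssk1. Tssk2, the next gene downstream, had the same peaks as its nearest, at 6266 bp and 5478 bp. Tssk3 had q scores of 69.9 (3.18, 1395 bp) and 48.2 (2.43, 811 bp). The start of Fam229a, 420 bp off, was covered in both lists and that of Tssk3 in replicate 1, with a distance of 239 bp in replicate 2. In each of the 3 kinases a start of another gene thus lay under the peak.

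The 6 regulators, chaperones and other genes included 5 with a promoter peak in both replicates, where 46.6% of genes at equal CpG ratio and 57.9% of all protein-coding genes did. Crem, the cAMP-responsive activator of the spermatid genes, had q scores of 514 (log2 ratio 4.67, width 1935 bp) and 156 (3.04, 1813 bp). Crem is also expressed outside spermatids from several promoters, and the peak covered its CpG-rich starts (ratios of 1.05 and 1.06). The start shared by most of its RefSeq transcripts, with a ratio of 0.0525, had no peak within 2 kb in either list, and an internal start had one of q score 36.4 in replicate 1 only. Hspa1l, a testis chaperone of the HSP70 family, had q scores of 153 (4.62, 1612 bp) and 71.9 (2.67, 1233 bp) at a peak shared with Hspa1a, its heat-inducible relative 547 bp away. Tcp11, a sperm motility gene, had q scores of 95.9 (3.04, 2855 bp) and 64.0 (3.11, 1643 bp), over all 3 of its starts. Klhl10, an adaptor of a ubiquitin ligase in spermatids, had q scores of 272 (4.33, 2091 bp) and 56.1 (1.96, 2168 bp). Its peaks covered Nt5c3b, a nucleotidase gene starting 116 bp away, and stopped 61 bp and 2 bp before the Klhl10 start. Spata3, a spermatogenesis-associated gene, had q scores of 42.2 (2.88, 561 bp, over the start) and 31.2 (2.66, 521 bp, at 1821 bp), the only member of the 15 whose promoter peaks did not overlap between replicates. Fscn3, a testis fascin, was 3492 bp and 3302 bp from a peak over the start of Arf5.

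**Figure D2:**
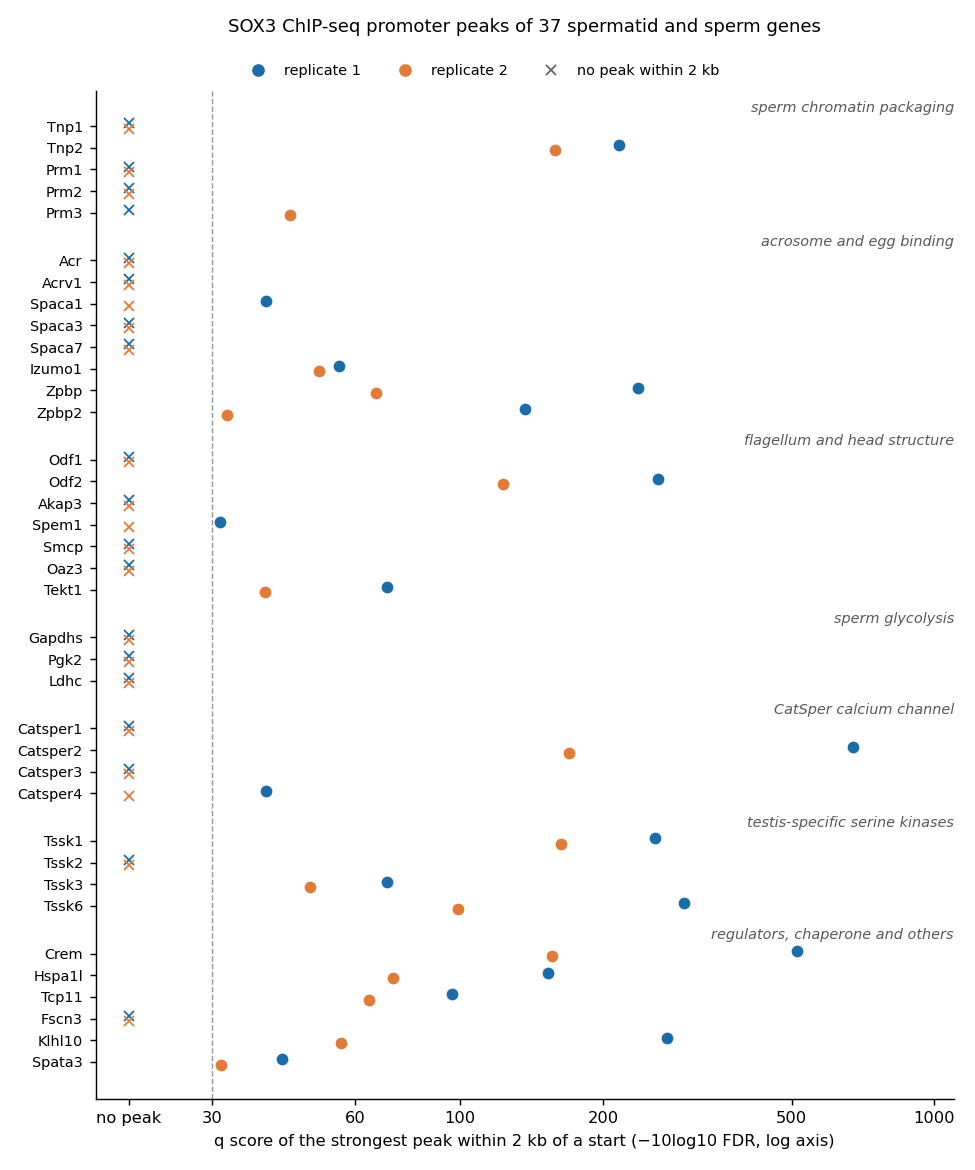
The q score of the strongest peak within 2 kb of a start (log axis) for each of the 37 members, by role, in replicate 1 (blue points) and replicate 2 (orange points); crosses at the left mark a replicate with no such peak, and the dashed line is the minimum q score of 30. Catsper2 and Crem reach the highest scores in replicate 1, 673 and 514, and the 3 genes of sperm glycolysis have crosses only.

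Over the members with a promoter peak the median q score was 145 in replicate 1 (n = 18, range 31.1 to 673) and 65.3 in replicate 2 (n = 16, range 31.2 to 169). The medians over all protein-coding genes with a promoter peak were 171 (n = 14248) and 80.1 (n = 12605). A q score above 60 was found at 13 of 18 members (72.2%) and 9 of 16 (56.2%), against 82.3% and 66.4% of those genes. Median log2 ratios at members were 3.29 and 2.74, which differed from those of all such genes by −0.41 and 0.04.

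Several of the peaks lay over starts of neighbouring genes. The strongest peak covered a start of the member itself at 14 of 18 genes (77.8%) in replicate 1 and at 8 of 16 (50%) in replicate 2, against 89.7% and 87.5% of protein-coding genes with a promoter peak. A start of another gene was nearer to the middle of the strongest peak at 5 and 6 members. In replicate 1 these were Tnp2, Tssk1, Tssk3, Tssk6 and Klhl10. In replicate 2 they were Tnp2, Prm3, Tssk1, Tssk3, Klhl10 and Catsper2. When each peak was given only to the gene whose start lay nearest to its middle, 13 members (35.1%) kept a peak in replicate 1, 11 (29.7%) in replicate 2 and 9 (24.3%) in both, against 61.3%, 54.0% and 49.7% of all protein-coding genes and 43.3%, 34.0% and 29.4% at equal CpG ratio. These 9 were Crem, Hspa1l, Odf2, Tcp11, Tekt1, Zpbp, Zpbp2, Spata3 and Izumo1. That rule was added after the data were seen, and it put the list below the share at equal CpG ratio where the 2 kb rule put it above.

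**Figure D3:**
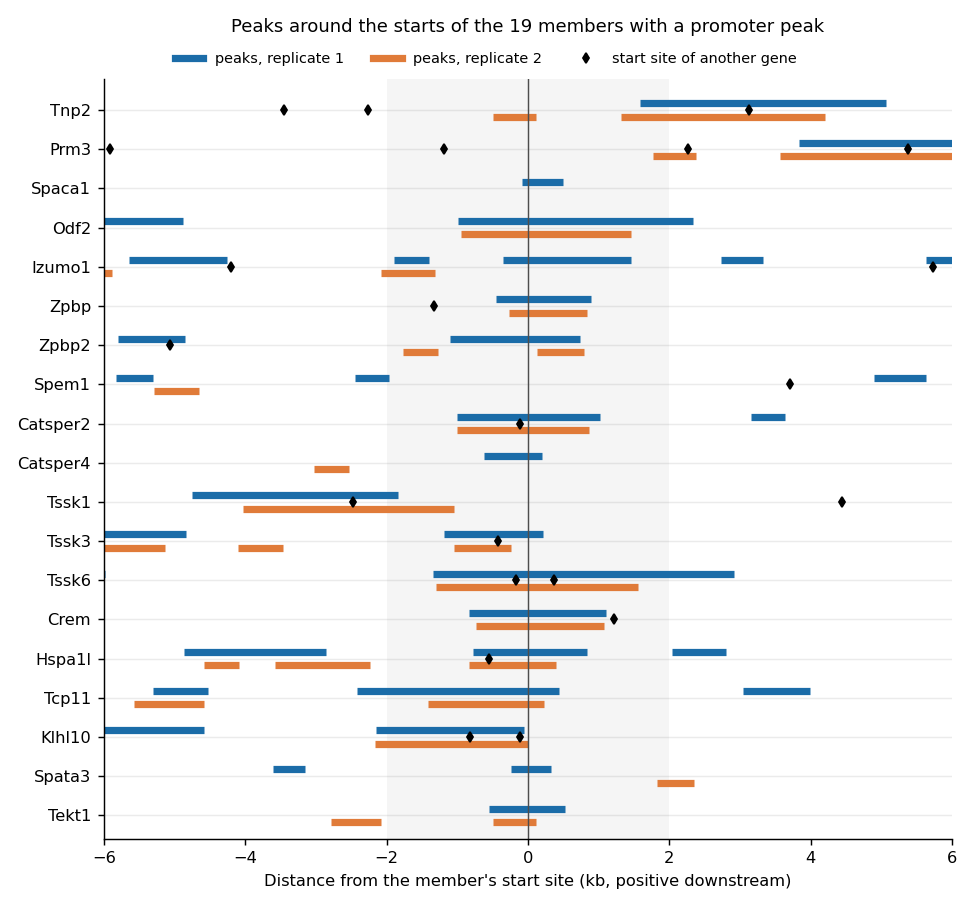
Peaks within 6 kb of the start of the highest CpG ratio (0 on the x axis, in kb, positive downstream) for the 19 members with a promoter peak in at least 1 replicate; bars are peaks of replicate 1 (blue) and replicate 2 (orange), diamonds are starts of other genes, and the grey band is 2 kb either side. Bars at Tnp2, Tssk1 and Klhl10 lie over a diamond, while those at Odf2, Zpbp and Tcp11 lie over the member's own start.

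Another gene started within 2 kb of 14 of the 37 members (37.8%), against 16.8% of all protein-coding genes. Of these 14 members, 7 (50%) and 8 (57.1%) had a promoter peak in replicates 1 and 2, against 51.8% and 43.1% at equal CpG ratio. Of all protein-coding genes with such a neighbour, 94.4% and 90.2% had one. Of the other 23 members, 11 (47.8%) and 8 (34.8%) had one, against 44.4% and 34.2% at equal CpG ratio and 62.5% and 54.0% of all protein-coding genes without a neighbour. A peak in this group can still belong to a start farther than 2 kb away. Tnp2 and Tssk1 are in it, and their strongest peaks covered the starts of Socs1 and Dgcr2. Among CpG-poor genes (ratio below 0.6) with a neighbour, 3 and 4 of 10 members had a promoter peak, against 76.7% and 63.4% of protein-coding genes and 33.5% and 23.0% at equal CpG ratio.

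Members without a promoter peak lay a median of 6898 bp from the nearest peak in replicate 1 (n = 19) and 9299 bp in replicate 2 (n = 21). For all protein-coding genes without one the medians were 66750 bp and 55837 bp. The nearest peak covered a start of another gene at 9 of the 19 members (47.4%) and 10 of the 21 (47.6%), against 36.4% and 36.5% of those genes. These neighbours were Socs1, Chek1, Ndufa9, Ldha, Dgcr2, Mrpl9 and Arf5 in replicate 1.

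To set the members beside the form of the same protein used in most cells, 14 widely expressed relatives were examined, and all 14 had a promoter peak over a start in both replicates (100%, against 94.1% and 86.8% at equal CpG ratio). Beside Pgk2, without a peak, Pgk1 had q scores of 98.5 and 33.9. Beside Ldhc stood Ldha (237 and 105) and Ldhb (219 and 141). Gapdh, beside Gapdhs, had 524 and 215. With RefSeq starts the sperm form of these enzymes stood at 0 of 3 in both lists, against 27.1% and 17.6% at equal CpG ratio. The widely expressed form stood at 4 of 4. These 4 genes lie in CpG bins 5 to 7. The shares of all genes in those bins ran from 83.4% to 96.2% in replicate 1 and from 67.9% to 89.2% in replicate 2. The sperm genes had a median CpG ratio of 0.235, and the part of CpG ratio in this split was not tested. With GENCODE starts Gapdhs counted as having a peak in replicate 1. For Oaz3 the relatives Oaz1 and Oaz2 had q scores of 695 and 267, and 211 and 44.7. Fscn1, beside Fscn3, had 196 and 93.8. Where the member itself had a promoter peak the relatives did too, at Creb1 (593 and 231) and Atf1 (715 and 201) beside Crem, and at Tcp11l1 (153 and 66.4) and Tcp11l2 (137 and 94.1) beside Tcp11. The relatives of Hspa1l were Hspa1a (153 and 71.9), Hspa1b (272 and 61.6) and Hspa8 (573 and 173). Hspa1a and Hspa1b are nearly identical in sequence and reads that fitted several places were assigned at random, so their values are uncertain. The median CpG ratio was 0.793 in the relatives.

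A list of 45 other spermatid genes, 44 of them matched, had 23 promoter peaks in replicate 1 (52.3%), 14 in replicate 2 (31.8%) and 13 in both (29.5%). At equal CpG ratio the shares were 51.2%, 41.0% and 37.8%. The highest q scores in replicate 1 among its genes with a peak in both lists were at Cabyr (420 and 181), Spaca6 (291 and 138), Eno4 (277 and 83.3) and Spag4 (244 and 121). The Spaca6 peak lay 401 bp and 1952 bp from the Spaca6 start, and its middle was nearest to Mir99b in both lists. The Eno4 peak also covered the start of Hspa12a. H1f7, Akap4, Tekt5 and Catsperb had none. Of 38 meiotic prophase genes, active at the stage before spermatids, 36 had a promoter peak in replicate 1 (94.7%) and 25 in replicate 2 (65.8%), against 84.6% and 74.6% at equal CpG ratio. Their median CpG ratio was 0.646. Zcwpw1, a histone methylation reader of meiotic recombination, had the highest q scores there, 470 and 153, and Tex11 and Tex15 had no peak. The Zcwpw1 peak also covered the start of Mepce, which was nearer to its middle in both lists. The 36 and 25 meiotic genes set replicate 1 above and replicate 2 below the share at equal CpG ratio, so the direction differed between the 2 lists.

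**Figure D4:**
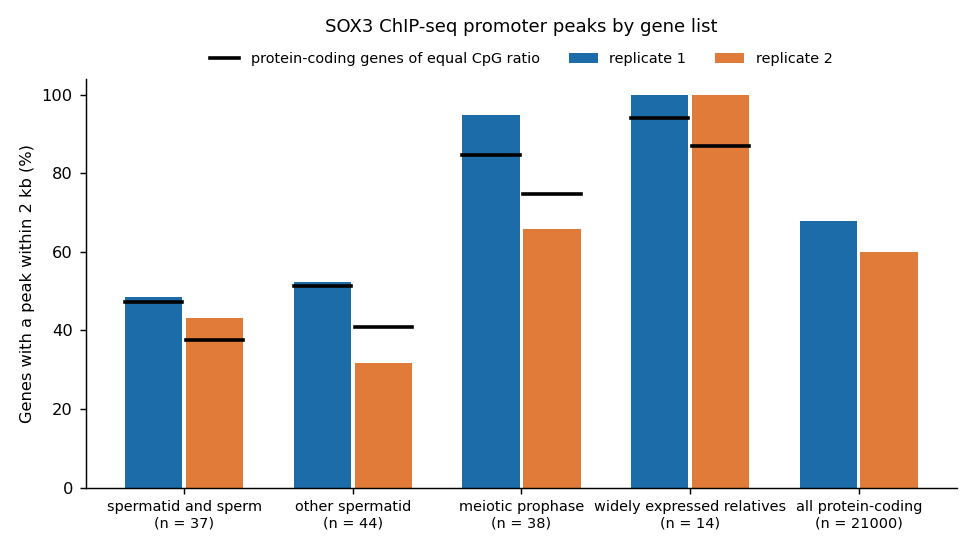
Bars give the share of genes (%) with a SOX3 ChIP-seq peak within 2 kb of a start in replicate 1 (blue) and replicate 2 (orange) for each gene list, and black lines the share among protein-coding genes of equal CpG ratio. Spermatid and sperm genes reach 48.6% and 43.2%, with their lines at 47.2% and 37.5%, and lie below the 67.8% and 60% of all protein-coding genes.

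Short letter strings were counted on both strands in 300 bases, 250 before and 50 after the start of highest CpG ratio, as a description of the sequence. The full cAMP response element TGACGTCA was in 1 member, Izumo1 (2.7%, against 2.59% of all protein-coding genes), where it is part of the sequence shown above. Its shorter form TGACG, which the full element contains, was in 10 members (27.0%, against 24.8%), of which 8 had a promoter peak in both replicates and 1 had none. The SOX core ACAAT was in 18 members (48.6%, against 26.1%), of which 6 had a promoter peak in both replicates and 11 had none. TATAAA was in 3 members (8.11%, against 12.5%), namely Fscn3, Prm2 and Spaca7, none with a peak. TGACG holds a CpG and ACAAT has none, the members with and without peaks differ in CpG ratio, and the part of CpG content in these counts was not tested.

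ChIP-nexus, in which an exonuclease trims the precipitated DNA, gave 110 and 18 regions on mouse chromosomes. None lay within 2 kb of a start of the 37 genes, and the smallest distances were 347140 bp and 402911 bp. The study reports far fewer unique reads for these libraries than for its SOX3 ChIP-seq libraries. The lack of a region therefore cannot be read as a lack of binding. Among all protein-coding genes, 38 and 0 had a region within 2 kb.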

How the data were processed

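SOX3 ChIP-seq and ChIP-nexus peak lists from testis at postnatal day 7 were used, 2 replicates each. The authors aligned reads to mm10 with Novoalign, placed multiply mapping reads at random, removed duplicates with Picard, and called ChIP-seq peaks per replicate with USeq. The ChIP-seq lists were deposited without a header, so the q score (10 times −log10 FDR) and the log2 ratio of ChIP over input were inferred from their layout and values. The deposited ChIP-nexus lists (MACS2 2.1.1) give fold enrichment, −log10 p, −log10 q and a score, and only their positions were used. The lists hold no read counts, and the read numbers that the study gives for its libraries entered no count or share.

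Start sites were those of 45756 curated RefSeq transcripts of GRCm38.p6. A peak within 2 kb was a promoter peak. CpG ratios were split into 10 bins of 2100 protein-coding genes, and the share at equal CpG ratio is the mean, over members, of the share in the member's bin. The overlap code (Python 3.11.15, pandas 2.3.3, pysam 0.24.0) was tested on simulated data against bedtools 2.31.1, recovering 100% of planted pairs. Values are descriptions, and no test was made over the list, whose members were chosen with earlier results of these data known.

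The other lists were chosen in the same way. All members were named with their state; other lists were named by highest replicate 1 q score or, without peaks, in list order, fewer than the rule allowed. H1f9 was not matched. Alternatives covered the q score minimum, the window, the annotation, the start, the CpG bins and window, and leaving out a replicate, and giving each peak to the nearest start or keeping only members without a neighbouring start was added after seeing the data.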

Additional observations from a re-analysis of the deposited data

How the results depend on the processing

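The number of members with a promoter peak (mean of the replicates 17, both replicates 15) was 16 to 18 when either replicate was left out, and the share at equal CpG ratio (42.4%) was 37.5% to 47.2%. The mean of the 2 replicate medians of the member q scores (105) mixes lists of different score levels and describes neither. Without replicate 1 it was 65.3 and without replicate 2 it was 145, which are the medians of the single lists. With a q score above 60 the counts were 11.0 and 9.0, and the shares at equal CpG ratio 25.2% and 19.1% (both replicates). Above 40 the mean share was 34.5%. Requiring the peak to cover the start gave 8.0 members in both replicates and shares of 32.7% and 26.4%, so there the list was below the share in both replicates (21.6%). Giving each peak to the nearest start left 9.0 in both. With a peak in either replicate the share at equal CpG ratio was 50.7%. Only the 23 members with no neighbouring start within 2 kb, Tnp2 and Tssk1 among them, held 9.5 and 8.0, a smaller set by construction. Otherwise the cause of these shifts was not tested. In all, 41 of 53 alternative values stayed within 1.5 times the count or 1 SD. With 2 replicates, a share or q score with 1 replicate left out lies within 1 SD of their mean by construction. Those values could not have failed, and this count is no measure of robustness. The 1 kb values also stayed within these limits, although the direction against the share at equal CpG ratio reversed there. By member, 20 of 37 changed state in at least 1 of 8 alternatives, 10 of them above a q score of 60 and 2 with GENCODE M21 starts (Gapdhs and Oaz3). No paired analysis was possible because the values come from no test and no groups are compared. Within 1 kb, as with the nearest start, the list was below the share at equal CpG ratio in each replicate. Within 5 kb, and with a q score above 40 or above 60, the list was above that share in each replicate. The lists carry no read counts, so what depth limits was not assessed. The q scores of Spaca1, Catsper4, Spem1 and Spata3 lie close to the authors' minimum of 30. In replicate 2 so do those of Zpbp2 (32.2) and Tekt1 (38.7). These were the 6 members whose state changed above a q score of 40.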
